A study of Mus musculus with 17 samples.

Results

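The 33 genes described here encode glutamate receptors of the brain and the auxiliary subunits that bind them. They were chosen by name from the 26131 genes counted, with earlier results of these data known, and all 33 were found: 4 AMPA receptor genes (Gria1 to Gria4), 7 NMDA receptor genes (Grin1, Grin2a to Grin2d, Grin3a, Grin3b), 5 kainate receptor genes (Grik1 to Grik5), the delta receptor gene Grid1, 7 metabotropic receptor genes (Grm2 to Grm8), 6 Cacng genes and 3 genes of the Neto and Shisa families. RNA of single nuclei was counted in 17 libraries of posterior brain, labelled as from female mice aged 2.3 months and each called an animal here. All animals, the controls included, carried the human form of the transferrin receptor (TfR) as a homozygous knock-in (hTfR KI HOM), so no wild-type animal entered any comparison. The groups were saline (labelled Vehicle, n = 4), Malat1 ASO at 2 mg per kg (an antisense oligonucleotide against Malat1, n = 4), anti-TfR:Malat1 at 50 mg per kg (labelled TfR-Malat1, n = 6) and OTV:Malat1 at 50 mg per kg (n = 3). Each group received 4 intravenous doses over 24 days in sterile saline, with harvest 72 hours later. The series title sets OTV and anti-TfR carriers of the same oligonucleotide head to head. The labelled dose of the free oligonucleotide differs from that of the conjugates, so it is set only against saline. The labelled doses were not converted to amounts of oligonucleotide, so whether those amounts differ is not known here.

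The matrix held 284074 nuclei, from 13841 to 18365 per animal, with 55393588 to 79866411 unique molecular identifiers (UMIs, one per captured RNA molecule) per animal. Levels are CPM, the UMIs of a gene per 1000000 UMIs of the same animal and class of nuclei. Nuclei were grouped by the deposited label, with deposited cluster 13 set apart: 185932 Neurons, 74852 Oligodendrocytes, 8444 Microglia, 4960 Astrocytes, 1222 vascular nuclei and 7782 nuclei of cluster 13. The labels Perivascular macrophages (657 nuclei) and Glia (225 nuclei) were small and are left out of the statements by class unless named. In saline animals cluster 13 held the oligodendrocyte precursor markers Pdgfra (622 CPM), Vcan (1256 CPM) and Cspg4 (319 CPM), which were at 2.80, 14.7 and 2.10 CPM in Neurons. The other labels held their markers as well, with Mbp at 4347 CPM in Oligodendrocytes, Gja1 at 262 CPM in Astrocytes, Csf1r at 772 CPM in Microglia, Flt1 at 1216 CPM in vascular nuclei and Syt1 at 3284 CPM in Neurons. The authors called 47758 nuclei (16.81%) doublets and left them in the matrix. The targeted RNA, Malat1, was lowest in OTV:Malat1. In Oligodendrocytes Malat1 was at 102620 CPM in saline and 16453 CPM in OTV:Malat1, a log2 change of -2.82 (edgeR quasi-likelihood test, adjusted p = 1.3e-07), and in Neurons that change was -0.65 (95% interval -1.06 to -0.23, adjusted p = 1). In anti-TfR:Malat1 the change in Oligodendrocytes was -0.61 (-0.92 to -0.31, adjusted p = 1 by edgeR). Both intervals lay below 0, although neither change passed the threshold after adjustment over all genes.

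AMPA, NMDA and kainate receptors are ion channels that open when glutamate binds and carry fast excitation, each assembled from the subunits of its own family. Metabotropic receptors signal through G proteins, and several of them sit on the presynaptic terminal or on glia. Cacng proteins (TARPs) carry AMPA receptors to the synapse and slow their closing, Neto proteins do much the same for kainate receptors, and Shisa9 (CKAMP44) binds AMPA receptors. Cortical and hippocampal neurons, thalamic neurons, astrocytes and oligodendrocyte precursors are known to use different subsets of these genes.

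Start-site sequence is shown for 3 members that stood at the ends of the class pattern below: Grin2c, the member with the largest ratio of its Astrocyte to its Neuron level, Grm3, the member highest in Oligodendrocytes, and Gria2, which was at over 1000 CPM in Neurons, Astrocytes and cluster 13. Each is the 150-base stretch before the annotated start in RefSeq (build GRCm38.p6), 5′ to 3′ on the gene's strand, all minus-strand, at chr11:115267244-115267393, chr5:9725353-9725502 and chr3:80802836-80802985. Capitals mark the GC box motif GGGCGG or its complement CCGCCC and the TATA box motif TATAAA.
Grin2c: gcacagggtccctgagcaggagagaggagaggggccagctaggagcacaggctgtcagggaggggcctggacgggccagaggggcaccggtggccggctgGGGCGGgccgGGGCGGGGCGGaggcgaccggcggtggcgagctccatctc
Grm3: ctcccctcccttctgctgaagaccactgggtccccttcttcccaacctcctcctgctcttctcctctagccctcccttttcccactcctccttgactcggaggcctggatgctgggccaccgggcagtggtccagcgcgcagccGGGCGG
Gria2: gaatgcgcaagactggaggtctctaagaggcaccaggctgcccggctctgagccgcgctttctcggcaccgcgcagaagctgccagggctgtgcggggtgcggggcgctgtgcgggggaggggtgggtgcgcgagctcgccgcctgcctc
None of the stretches held TATAAA, and Gria2 held neither motif. Start windows were found for 21 of the 33 members (26 windows). On either strand GGGCGG lay in 46.2% of these windows (12 windows) and in 32.7% of all 32851 windows of the table, and TATAAA lay in 3.85% and 12.4%. These matches describe the letters of the windows only.

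Among these 6 classes in saline animals, 17 of the 33 members had their highest mean level in Neurons, 12 in cluster 13, 2 in Astrocytes and 1 in Oligodendrocytes. The remaining member, Grm6, the receptor of retinal ON bipolar cells, had 0 UMIs in saline, which allows a level of up to 0.0116 CPM over all nuclei. The authors' classes may rest in part on these genes, so the levels by class are a description with no test. UMIs of a neuronal gene also occur in other nuclei. Of 10 neuronal background genes, the median level in Oligodendrocytes was 6.23% of that in Neurons, in Astrocytes 7.85%, in Microglia 8.75%, in vascular nuclei 11% and in cluster 13 22.8%. A member is called above this background where its share of the neuronal level exceeded the highest of the 10 genes, which was 58.8% (Stmn2), 83.8% (Syn2), 90.9% (Stmn2), 65.7% (Stmn2) and 108% (Syn2) in the same order. By this rule 4 members stood above it in Oligodendrocytes (Grik1, Grik2, Grm3 and Cacng7), 8 in Astrocytes (Gria2, Grin2c, Grin3a, Grin3b, Grm3, Cacng4, Cacng7 and Cacng8), 1 in Microglia (Grin3b) and 3 in vascular nuclei (Grm2, Grm3 and Cacng4). In cluster 13 they were the 12 members highest there: Gria4, Grin3a, Grin3b, Grik1, Grik3, Grik4, Grid1, Cacng4, Cacng5, Cacng7, Neto1 and Neto2. In the other 5 classes, levels of the remaining members were not above this limit, although their shares of the neuronal level lay far apart: in Astrocytes Grin2a was at 2.13% and Gria1 at 75.3%, and in cluster 13 Grin2a was at 1.88% and Gria2 at 86.1%. In the 2 small labels the highest mean levels of 3 members lay above those of the 6 classes, Grik3 in Glia (280 CPM from 24 UMIs in 2 animals), Grm2 in Glia (1 UMI) and Cacng5 in Perivascular macrophages (2 UMIs). Above the background there were these 3 and, in Glia, Grin3a (23 UMIs), Grik5 (7 UMIs) and Cacng4 (4 UMIs). With 6 neuron markers out of the 10 genes, a list added after the values were seen, the limits were lower and more members passed. In the order of the 5 classes above the limits were 16%, 13.3%, 20.7%, 23.6% and 33.6%, and the counts were 14, 21, 4, 8 and 22. Syn2 and Stmn2 set the first limit and are not in the second list. The level of Syn2 in cluster 13 was itself above that in Neurons, and the first limits of 58.8% to 108% lay far above the medians. A level under the first limit is therefore not shown to come from neurons.

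**Figure D1:**
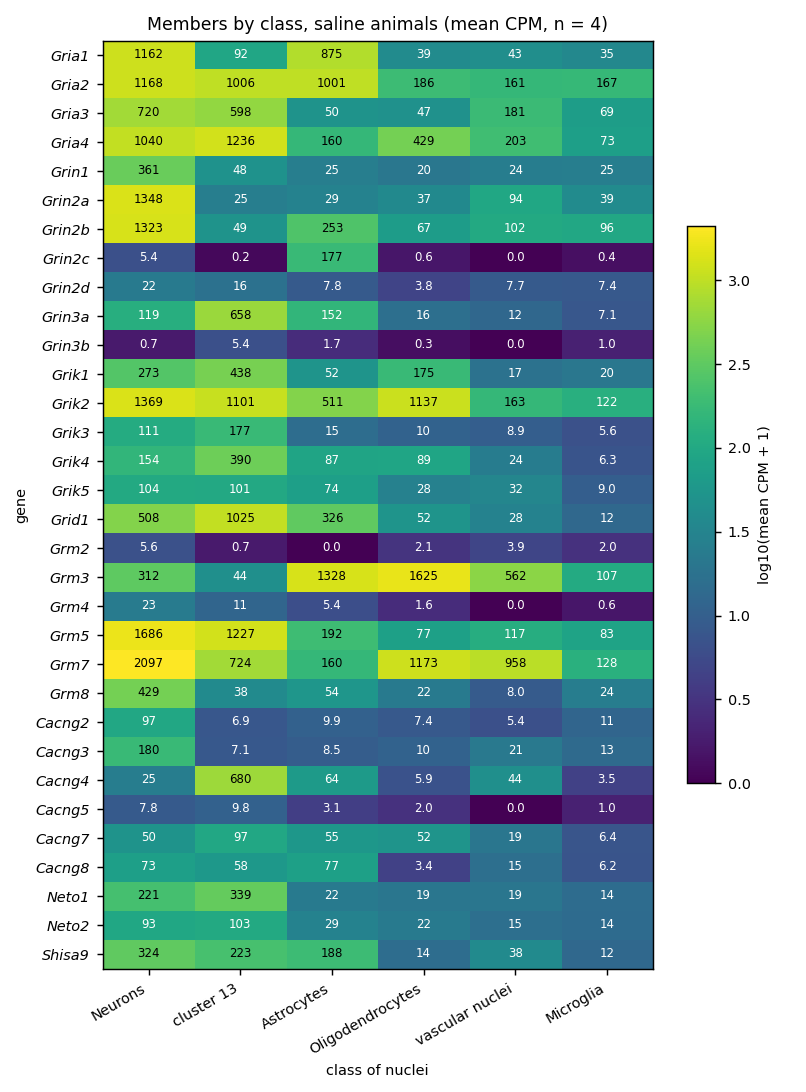
Mean CPM of 32 members (rows, without Grm6) in 6 classes of nuclei (columns) in the 4 saline animals, with the colour giving log10(mean CPM + 1). CPM is not per transcript length, so values compare along a row. Grin2c stands out in Astrocytes (177 CPM), Grm3 in Oligodendrocytes and Astrocytes (1625 and 1328 CPM), and Cacng4 and Grin3a in cluster 13 (680 and 658 CPM).

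Among the AMPA receptor genes, Gria1 was at 1162 ± 103 CPM in Neurons (mean ± SD, n = 4 saline animals here and below), 875 ± 57.8 in Astrocytes and only 92.2 ± 8.85 in cluster 13. Gria2, the subunit whose edited form makes the channel impermeable to calcium, was at 1168 ± 49.3 CPM in Neurons, 1001 ± 44.1 in Astrocytes and 1006 ± 52 in cluster 13. The last 2 levels of Gria2 did not differ beyond their spread, meaning here and below a gap smaller than the larger SD. Gria3 was at 720 ± 60.5 CPM in Neurons and 598 ± 18.9 in cluster 13 but 49.5 ± 28.1 in Astrocytes. Gria4 was highest in cluster 13 (1236 ± 42.6 CPM), followed by Neurons (1040 ± 32.9), Oligodendrocytes (429 ± 52.1) and Astrocytes (160 ± 46.3). Of these, Gria2 in Astrocytes (85.7% of its level in Neurons) and Gria4 in cluster 13 (119%) stood above the background, while Gria1 (75.3%) and Gria4 (15.4%) in Astrocytes, Gria4 in Oligodendrocytes (41.2%) and Gria2 (86.1%) and Gria3 (83%) in cluster 13 did so with the 6-marker list only. The limit in Astrocytes was 83.8%, so the call of Gria2 there was a narrow one. As shares of the UMIs of the 4 genes, which mix transcripts of different length and compare only between classes, Gria1 made up 28.4% in Neurons, 42% in Astrocytes and 3.14% in cluster 13, and Gria4 made up 25.5% in Neurons, 42.2 ± 1.07% in cluster 13 and 61.6 ± 3.85% in Oligodendrocytes.

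The obligatory NMDA subunit gene Grin1 was at 361 ± 18 CPM in Neurons and at 25.4 CPM in Astrocytes and 47.8 CPM in cluster 13. Grin2a and Grin2b, which encode the main forebrain GluN2 subunits, were at 1348 ± 146 and 1323 ± 86.3 CPM in Neurons. In Astrocytes Grin2b was at 253 ± 32.9 CPM and Grin2a at 28.8 CPM, so the level in Astrocytes relative to Neurons was higher for Grin2b. Grin2c was the GluN2 gene with a higher level in Astrocytes, 177 ± 40.2 CPM (462 UMIs), than in Neurons, 5.42 ± 1.18 CPM, a 32.6-fold ratio. Neurons, the larger class, still held most of its UMIs (1189 of 1669 over all nuclei). In Oligodendrocytes it was at 0.586 CPM and in cluster 13 at 0.184 CPM. Grin2d was at 21.8 ± 1.46 CPM in Neurons and 16.2 CPM in cluster 13. Grin3a, whose subunit lowers the calcium permeability of the receptor, was at 658 ± 35.5 CPM in cluster 13, 5.52-fold its level in Neurons (119 ± 6.44 CPM), and at 152 ± 10.1 CPM in Astrocytes. Grin3b was scarce everywhere, with 5.42 ± 3.71 CPM in cluster 13 from 21 UMIs and 0.744 CPM in Neurons.

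Of the kainate receptor genes, Grik2 was at 1369 ± 97.8 CPM in Neurons, 1137 ± 94.5 in Oligodendrocytes, 1101 ± 95.3 in cluster 13 and 511 ± 44.2 in Astrocytes. Its share of the neuronal level was above the background in Oligodendrocytes (83.1%) but not in cluster 13 (80.4%) or Astrocytes (37.3%). With the 6-marker list Grik2 stood above the background in cluster 13 and Astrocytes as well. Grik1 was higher in cluster 13 (438 ± 58.7 CPM) than in Neurons (273 ± 22.3) and was at 175 ± 21.6 CPM in Oligodendrocytes. Grik4, one of the high-affinity subunits, was at 390 ± 14 CPM in cluster 13, 154 ± 16 in Neurons and 89.5 ± 5.19 in Oligodendrocytes. Grik3 was at 177 ± 31.2 CPM in cluster 13 and 111 ± 7.09 in Neurons. The levels of Grik5 in Neurons (104 ± 5.39 CPM) and cluster 13 (101 ± 13.4 CPM) did not differ beyond their spread. Grid1, which binds cerebellins across the synapse, was at 1025 ± 69 CPM in cluster 13, 508 ± 27.5 in Neurons and 326 ± 37.1 in Astrocytes.

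Grm3, a Gi-coupled receptor known from astrocytes, was the one metabotropic gene with higher levels in Oligodendrocytes and Astrocytes than in Neurons. It was at 1625 ± 115 CPM in Oligodendrocytes, 1328 ± 171 in Astrocytes, 562 ± 117 in vascular nuclei, 312 ± 55.7 in Neurons and 43.5 ± 4.64 in cluster 13. Levels of Grm3 therefore lay 5.2-fold above Neurons in Oligodendrocytes but far below Neurons in the precursor-marker cluster 13. Grm7, a presynaptic receptor of low glutamate affinity, was at 2097 ± 90.3 CPM in Neurons, 1173 ± 154 in Oligodendrocytes, 958 ± 141 in vascular nuclei and 160 in Astrocytes, and none of the last 3 was above the background. With the 6-marker list Grm7 stood above the background in Oligodendrocytes and vascular nuclei, but not in Astrocytes. Grm5, which couples to phospholipase C, was at 1686 ± 94.9 CPM in Neurons, 1227 ± 123 in cluster 13 and 192 in Astrocytes. Grm8 was at 429 ± 30.8 CPM in Neurons and 38.3 in cluster 13. Grm4 (22.9 ± 2.39 CPM) and Grm2 (5.61 ± 0.449 CPM) were low in Neurons, and Grm2 had no UMI in saline Astrocytes. The call of Grm2 above the background in vascular nuclei rested on 2 UMIs, and those of Grin3b in Microglia and Astrocytes on 3 and 4.

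Cacng2 (stargazin) and Cacng3 were neuronal, at 97.1 ± 6.27 and 180 ± 16.4 CPM in Neurons, with Cacng2 at 11.2 CPM or less in the other 5 classes. Cacng4 was at 680 ± 111 CPM in cluster 13 against 24.5 ± 3.64 in Neurons, a 27.8-fold ratio, and at 64.2 ± 20.7 CPM in Astrocytes. Cacng7 was at 97.3 ± 9.49 CPM in cluster 13. Its levels in Neurons (50.5 ± 3.33 CPM), Oligodendrocytes (52.1 ± 9.46 CPM) and Astrocytes (55.5 ± 25.1 CPM) did not differ beyond their spread, nor did those of Cacng8 in Neurons (73.0 ± 4.09 CPM) and Astrocytes (76.8 ± 17.6 CPM). Cacng5 was at 9.80 ± 1.27 CPM in cluster 13 and 7.82 in Neurons. Neto1 was at 339 ± 17.1 CPM in cluster 13 and 221 ± 21.1 in Neurons, Neto2 at 103 ± 10.4 and 93.1 ± 6.45 CPM (not different beyond the spread), and Shisa9 at 223 ± 18.5 and 324 ± 22.5 CPM, with 188 ± 38.3 CPM of Shisa9 in Astrocytes. Of the 6 Cacng genes, Cacng2 and Cacng3 were thus highest in Neurons, Cacng4, Cacng5 and Cacng7 in cluster 13, and Cacng8 in Astrocytes.

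Within Neurons, deposited clusters of 8043 to 36109 nuclei differed in the members they held. Clusters are called by their fixed markers where these fit: 3 upper-layer-like, 7 deep-layer-like, 9 dentate-granule-like, 12 thalamic-like, and 1, 4 and 10 inhibitory-like, the last with Adora2a and Drd2 among its leading genes. Cluster 3 also held more Rorb, Rspo1 and Whrn, from the list of Rorb cortical markers, than the other neuronal nuclei. Cluster 10 likewise held more Foxp2, Syt6 and Bcl11b, from the list of deep-layer cortical markers. Clusters 5, 6 and 8 keep their numbers. Clusters 2, 11, 14, 17 and 18 held neuron-labelled nuclei beside many of other labels and are left out of the levels. Cluster 16 (3151 nuclei) is left out as well and is described further on. Highest, lowest and next therefore refer to the clusters shown, and cluster 16 held more Grin2c than cluster 4 in 3 of the 4 saline animals (22.8, 25.1 and 29.4 CPM). Levels between clusters are likewise a description.

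**Figure D2:**
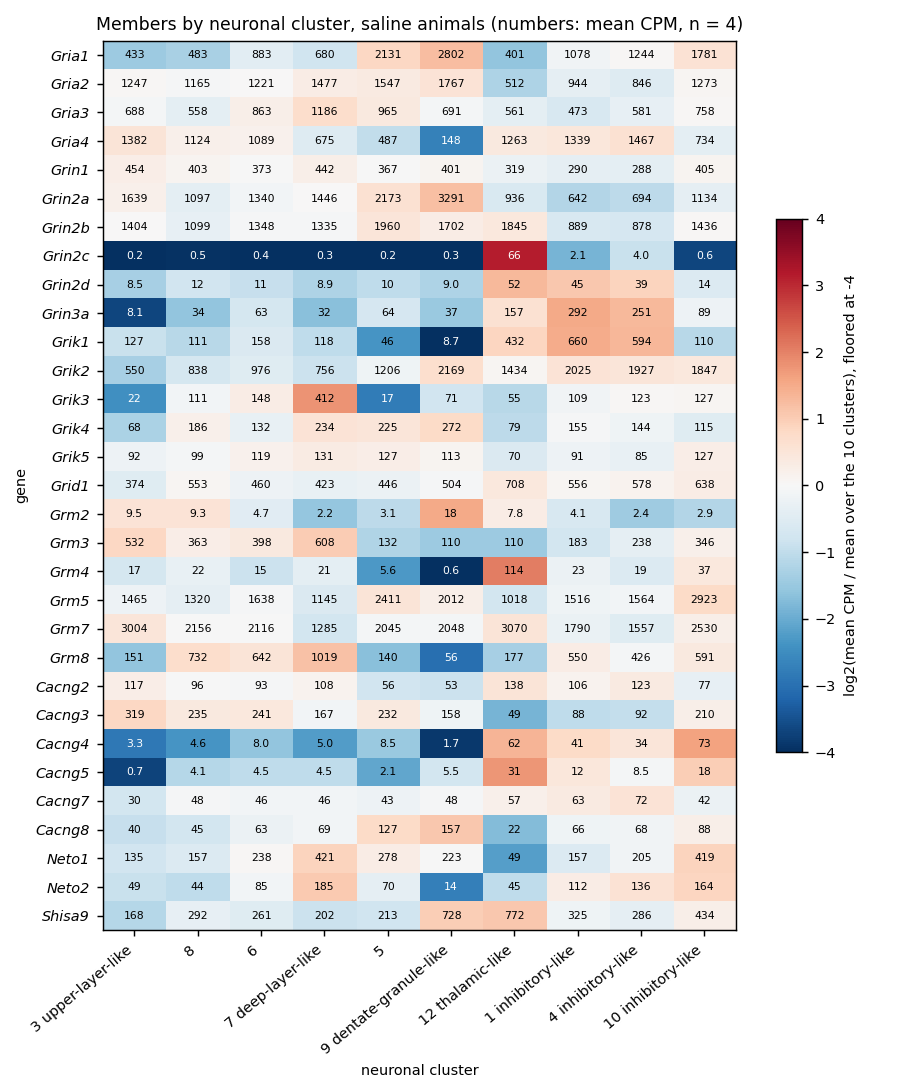
Levels of 31 members (rows) in 10 neuronal clusters (columns) in the 4 saline animals. Numbers are mean CPM, and the colour is log2 of that level over the mean of the 10 clusters, floored at -4. The dentate-granule-like cluster 9 combines high Gria1, Grin2a, Grik2 and Cacng8 with low Gria4, Grik1 and Neto2, and the thalamic-like cluster 12 combines high Grin2c, Grm4, Grid1 and Shisa9 with low Gria1, Gria2, Cacng3 and Neto1.

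The dentate-granule-like cluster 9 held the highest Gria1 (2802 ± 236 CPM), Gria2 (1767 ± 110), Grin2a (3291 ± 222), Grik2 (2169 ± 159), Grik4 (272 ± 36.7), Grm2 (18.3 ± 1.89) and Cacng8 (157 ± 9.42), with Grik2 in cluster 1 (2025 ± 196) within the spread. It held the lowest Gria4 (148 ± 19.5 CPM), Grik1 (8.72 ± 1.92), Grm4 (0.587), Grm8 (55.5 ± 11.1) and Neto2 (13.6 ± 4.34). Gria1 accordingly made up 51.8 ± 1.07% of the UMIs of the 4 AMPA genes there, against 11.6 ± 0.664% in the upper-layer-like cluster 3, and Gria4 made up 2.73 ± 0.286%. Counts of Grin2a per 100 of Grin2b were 194 ± 9.91 in cluster 9 and 102 ± 6.69 over all Neurons.

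The thalamic-like cluster 12 held the highest Grin2c (66.1 ± 16.5 CPM, the next cluster being 4 with 3.99), Grin2d (52.1 ± 7.8), Grid1 (708 ± 73.1), Grm4 (114 ± 19.7, the next being cluster 10 with 37.1), Grm7 (3070 ± 117), Cacng5 (30.5 ± 6.6) and Shisa9 (772 ± 89.5). The levels of Grin2d in cluster 1 (44.9 ± 5.51 CPM), Grid1 in cluster 10 (638 ± 39.4 CPM), Grm7 in cluster 3 (3004 ± 198 CPM) and Shisa9 in cluster 9 (728 ± 70.8 CPM) did not differ from these beyond their spread. It held the lowest Gria1 (401 ± 29.3 CPM), Gria2 (512 ± 22.4), Grm5 (1018 ± 86.9), Cacng3 (49.1 ± 11), Cacng8 (22.3 ± 5.4) and Neto1 (49.0 ± 4.77), with Gria1 in clusters 3 (433 ± 32.4) and 8 (483 ± 106) within the spread. Gria4 made up 46.1 ± 0.851% of the AMPA UMIs, and Grin2a numbered 50.8 ± 2.37 per 100 of Grin2b.

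The inhibitory-like clusters 1 and 4 shared high levels of 3 members. Grin3a was at 292 ± 15.9 CPM in cluster 1 and 251 ± 24.4 in cluster 4, against 8.12 ± 1.67 in cluster 3. Grik1, a subunit known from interneurons, was at 660 ± 48.2 CPM in cluster 1 and 594 ± 61.8 in cluster 4. Grin2d was at 44.9 ± 5.51 CPM in cluster 1 and 39.4 in cluster 4, and outside clusters 1, 4 and 12 it did not exceed 14.3 CPM. Gria4 was highest in cluster 4 (1467 ± 93.3 CPM), with cluster 3 (1382 CPM) within the spread. Grin2a was lowest in clusters 1 (642 ± 78.3 CPM) and 4 (694 ± 66.5), and Grin2b in clusters 4 (878 ± 50.4) and 1 (889 ± 57.9), which did not differ beyond their spread. The inhibitory-like cluster 10 differed from these, with the highest Grm5 (2923 ± 105 CPM) and Cacng4 (72.7 ± 14.3, with cluster 12 at 61.5 ± 12.6) of the 10 clusters and with Grik1 at 110.5 CPM and Grin3a at 89.1 CPM.

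The cortical-type clusters 3 and 7, named by layer markers, also differed in receptor genes. The deep-layer-like cluster 7 held the highest Gria3 (1186 ± 82.1 CPM), Grik3 (412 ± 44.7, the next being cluster 6 with 148 ± 5.77), Grm8 (1019 ± 67.4), Neto1 (421 ± 39.3, with cluster 10 at 419 ± 45.4) and Neto2 (185 ± 13.9), and the lowest Grm7 (1285 ± 133). The upper-layer-like cluster 3 held the highest Cacng3 (319 ± 38.3 CPM) and the lowest Grik2 (550 ± 49.4), Grik4 (67.5), Cacng7 (29.7), Cacng5 (0.689) and Shisa9 (168 ± 19.3). Its Grm3 (532 ± 128 CPM) did not differ beyond the spread from that of cluster 7 (608 ± 158 CPM), the highest of the 10. Grin1 varied least, from 288 to 454 CPM, and Grik5 reached at most 131 CPM. Grin2b was highest in cluster 5 (1960 ± 110 CPM), with cluster 12 (1845 ± 185) within the spread. Cacng2 was highest in cluster 12 (138.5 ± 22.9 CPM), with clusters 4 (123 ± 7.29) and 3 (117 ± 10.6) within the spread, and lowest in clusters 9 (53.1 ± 3.87) and 5 (56.2 ± 5.12).

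In Neurons no member passed the threshold in any treatment comparison. Counts were summed per animal and tested by edgeR's quasi-likelihood test with Benjamini-Hochberg adjustment over all genes of the fit (threshold 0.05), and 32 members passed the filter on low counts. Adjusted calls stood at 0 of 32 members in each of the 4 comparisons, against 0% of 20851 genes. At an unadjusted p under 0.05 there were 0 members for OTV:Malat1 against saline (1.22% of all genes), 0 for anti-TfR:Malat1 against saline (1.18%), 0 for Malat1 ASO against saline (0.638%) and 4 for OTV:Malat1 against anti-TfR:Malat1 (2.08%). DESeq2 called no member in any class either. The 95% intervals of the log2 change against saline had a median half-width of 0.21 for OTV:Malat1, 0.18 for anti-TfR:Malat1 and 0.19 for the free oligonucleotide. A sum over Neurons mixes neuron types, and the fits of single clusters follow further on.

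**Figure D3:**
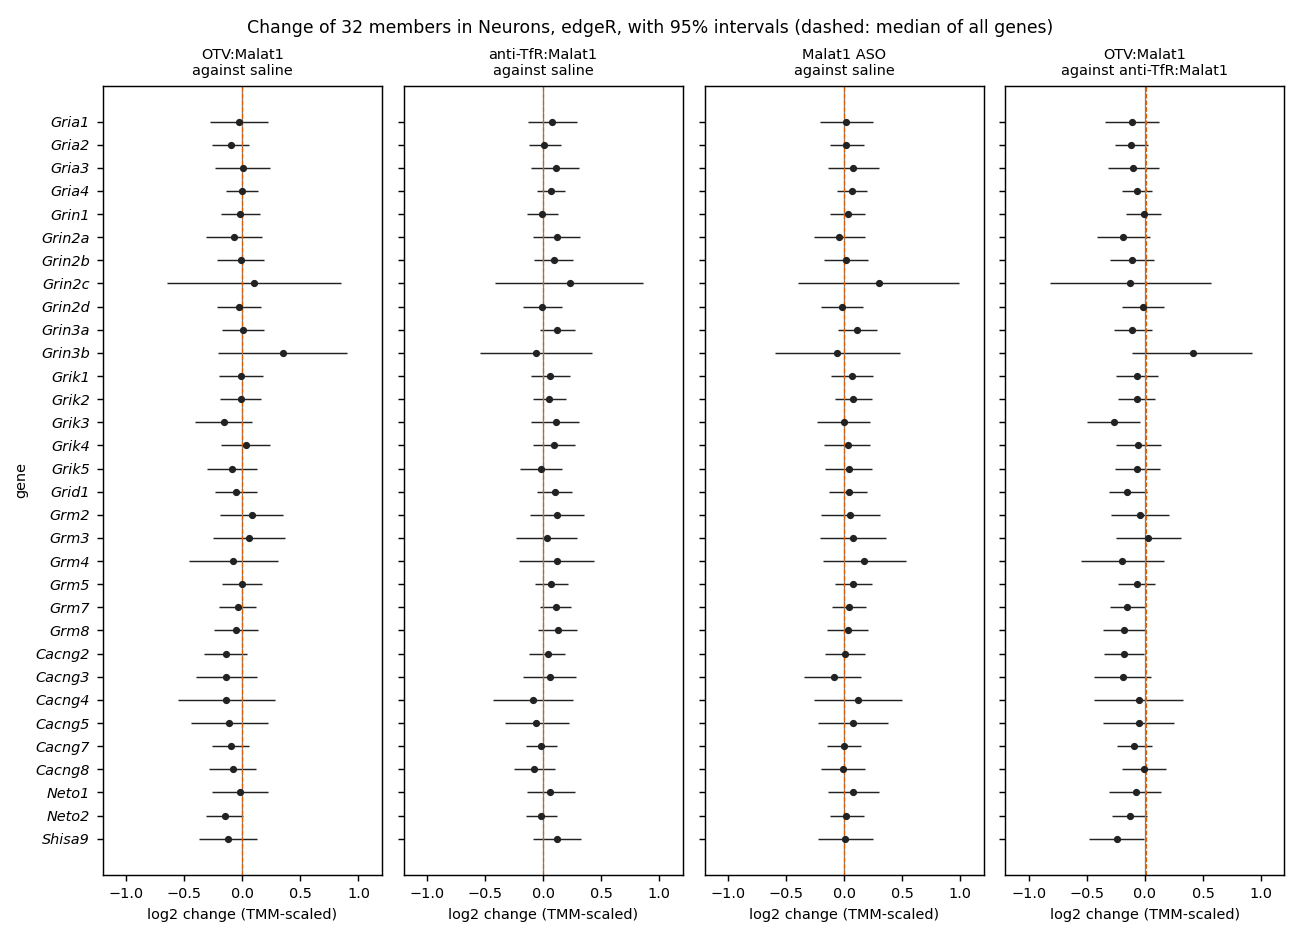
Log2 changes of 32 members in Neurons (points) with 95% intervals (bars) for the 4 comparisons (panels), from the edgeR fit over 17 animals, where the dashed line is the median of all genes. In the panels against saline every interval includes 0, and in the OTV:Malat1 against anti-TfR:Malat1 panel most points lie left of 0.

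Against saline, the 32 members ranged from -0.16 (Grik3) to 0.35 (Grin3b) in OTV:Malat1, from -0.09 (Cacng4) to 0.23 (Grin2c) in anti-TfR:Malat1 and from -0.09 (Cacng3) to 0.30 (Grin2c) in Malat1 ASO, in log2 units. The median member was at -0.04 (9 above 0, 23 below), 0.07 (23 above, 9 below) and 0.03 (26 above, 6 below), with the median of all genes at 0.002, -0.003 and -0.003. These comparisons share the saline animals. Leaving out single animals moved these medians. That of OTV:Malat1 ran from -0.09 (3 above, 29 below, 2 members at an unadjusted p under 0.05 beside 2.55% of genes) without OTV:Malat1 animal 3 to 0.03 (19 above, 13 below) without OTV:Malat1 animal 2, and was 0.00 without saline animal 4. That of anti-TfR:Malat1 ran from 0.04 to 0.11, the highest without saline animal 4, where 3 members had an unadjusted p under 0.05, beside 2.15% of genes. That of Malat1 ASO ran from -0.01 (14 above, 18 below) without Malat1 ASO animal 4 to 0.07 without saline animal 4. With CPM on total UMIs the member medians were 0.02 (19 above, 13 below), 0.03 (21 above, 11 below) and 0.03 (24 above, 8 below), beside 0.06, -0.03 and -0.01 for the 15772 genes of 1 CPM or more. Grin2c, at the upper end in anti-TfR:Malat1 and Malat1 ASO, was at 0.07 and 0.10 there without the nuclei of neuronal cluster 16, which is described below.

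The groups overlapped for the most abundant member of each family in Neurons. The CPM values are scaled to total UMIs and the log2 changes to the TMM factors of the fit, so a small change can have the opposite sign to the difference of the CPM means: on total UMIs the change in OTV:Malat1 against saline was 0.05 for Grik2, 0.01 for Grid1 and 0.02 for Grm7. Gria2 was at 1198, 1159, 1102 and 1212 CPM in saline, at 1146, 1199, 1128 and 1248 in Malat1 ASO, from 1112 to 1195 (median 1157) in anti-TfR:Malat1 and at 1210, 1034 and 1156 in OTV:Malat1. The log2 change of Gria2 in OTV:Malat1 against saline was -0.10 (95% interval -0.26 to 0.06). Grin2a was at 1474, 1191, 1256 and 1471 CPM in saline and at 1400, 1094 and 1513 in OTV:Malat1, a change of -0.07 (-0.31 to 0.17). Grik2 was at 1242, 1392, 1363 and 1479 CPM in saline and at 1419, 1429 and 1397 in OTV:Malat1, a change of -0.01 (-0.19 to 0.16). Grm7 was at 2058, 2059, 2040 and 2232 CPM in saline, at 2076, 2153, 2124 and 2245 in Malat1 ASO, from 2054 to 2297 (median 2234) in anti-TfR:Malat1 and at 2140, 1963 and 2257 in OTV:Malat1, a change of -0.04 (-0.20 to 0.12). Grid1 was at 505.5, 496, 484 and 547 CPM in saline and at 494, 483 and 558 in OTV:Malat1, a change of -0.05 (-0.23 to 0.13). Cacng3 was at 200.3, 170, 164 and 185.5 CPM in saline and at 167, 137 and 206 in OTV:Malat1, a change of -0.14 (-0.40 to 0.13). OTV:Malat1 animal 2 was the lowest of its group for Gria2, Grin2a, Grm7, Grid1 and Cacng3.

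Of the members with the smallest unadjusted p against saline, Neto2 in OTV:Malat1 had a log2 change of -0.15 (-0.31 to 0.01). It was at 90.3, 102, 87.2 and 92.8 CPM in saline, at 90.3, 83.2 and 89.3 in OTV:Malat1 and from 83.1 to 96.0 in anti-TfR:Malat1, and the groups overlapped. Grin3a in anti-TfR:Malat1 had a change of 0.12 (-0.03 to 0.27), with 113, 128, 117 and 119 CPM in saline and 111 to 146 (median 123) in anti-TfR:Malat1. In Malat1 ASO, Grin3a had the smallest unadjusted p of the members and was at 133.5, 119.8, 127.5 and 131 CPM. These values overlapped those of saline, and the change ran from 0.05 to 0.14 over the alternatives. Gria4 in Malat1 ASO had a change of 0.07 (-0.06 to 0.20), with 1000, 1042, 1038 and 1081 CPM in saline, 1035, 1047, 1139 and 1127 in Malat1 ASO, and overlapping groups. Grin3a is a gene of the inhibitory-like clusters 1 and 4, whose shares of neuronal nuclei ranged from 10.2% to 24.2% and from 4.25% to 19.6% over the 17 animals. The part of these shares in any level over all Neurons was not tested.

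Between the conjugates, 4 members had an unadjusted p under 0.05 in Neurons, all with adjusted p = 0.993 in edgeR's quasi-likelihood test. With OTV:Malat1 set against anti-TfR:Malat1 the log2 difference was -0.27 for Grik3 (-0.50 to -0.04), -0.18 for Cacng2 (-0.35 to -0.01), -0.24 for Shisa9 (-0.48 to -0.01) and -0.15 for Grm7 (-0.30 to 0.00). Grik3 was at 95.9, 91.9 and 121 CPM in OTV:Malat1 and from 102 to 143.5 (median 113) in anti-TfR:Malat1, with saline at 118.5, 111, 101.5 and 113. Shisa9 was at 291, 285 and 354 CPM in OTV:Malat1 and from 294 to 440 (median 332) in anti-TfR:Malat1, with saline at 332, 305, 308 and 353. The highest anti-TfR:Malat1 value of both genes was that of animal 1. Cacng2 was at 97.0, 83.7 and 94.0 CPM in OTV:Malat1 and from 88.5 to 109 (median 93.8) in anti-TfR:Malat1, with saline at 104, 98.5, 96.3 and 89.2. The groups overlapped for these genes and for Grm7.

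The number of such members moved with single animals, from 0 to 9 over the fits that left out 1 animal, with 7 without anti-TfR:Malat1 animal 3 (beside 2.86% of all genes) and 9 without OTV:Malat1 animal 3 (beside 6.37%). Without anti-TfR:Malat1 animal 1 none of the 4 had an unadjusted p under 0.05 (1.44% of genes had), with differences of -0.21 for Grik3 (-0.41 to 0.00), -0.15 for Cacng2 (-0.32 to 0.02), -0.16 for Shisa9 (-0.36 to 0.03) and -0.14 for Grm7 (-0.30 to 0.01). Without OTV:Malat1 animal 2 none had either (1.03% of genes), with -0.15 for Grik3 (-0.39 to 0.08), -0.08 for Cacng2 (-0.25 to 0.10), -0.15 for Shisa9 (-0.40 to 0.11) and -0.05 for Grm7 (-0.19 to 0.08). With only the 2 groups in the fit, 0 members had an unadjusted p under 0.05, beside 1.44% of genes. With the replicate block 4 had, beside 4.47% of genes, Grik3 and Cacng2 among them, but the intervals of Shisa9 (-0.21, -0.48 to 0.06) and Grm7 (-0.11, -0.30 to 0.08) included 0. With the deposited batch as a block 8 members had an unadjusted p under 0.05, beside 4.46% of genes, and the 4 values were -0.25 for Grik3 (-0.44 to -0.07), -0.18 for Cacng2 (-0.32 to -0.04), -0.21 for Shisa9 (-0.37 to -0.04) and -0.16 for Grm7 (-0.28 to -0.04), with adjusted p = 0.907 by edgeR for each. Within batches 2, 3 and 4, which hold 1 OTV:Malat1 animal each, differences of total-UMI CPM were -0.30, -0.20 and 0.09 for Grik3, -0.14, -0.13 and 0.03 for Cacng2, -0.15, -0.07 and 0.00 for Shisa9 and -0.05, -0.09 and -0.02 for Grm7. Over all 32 members, 30 lay below 0 and 2 above with a median of -0.09 under the main scaling, beside a median of 0.011 for all 20851 genes. Scaled to total UMIs, 16 lay below and 16 above with a median of 0.00, beside 0.10 for the 15772 genes of 1 CPM or more. Over the fits that left out 1 animal the median under the main scaling ran from -0.15 (28 below, 4 above) without OTV:Malat1 animal 3 to -0.03 (20 below, 12 above) without OTV:Malat1 animal 2.

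**Figure D4:**
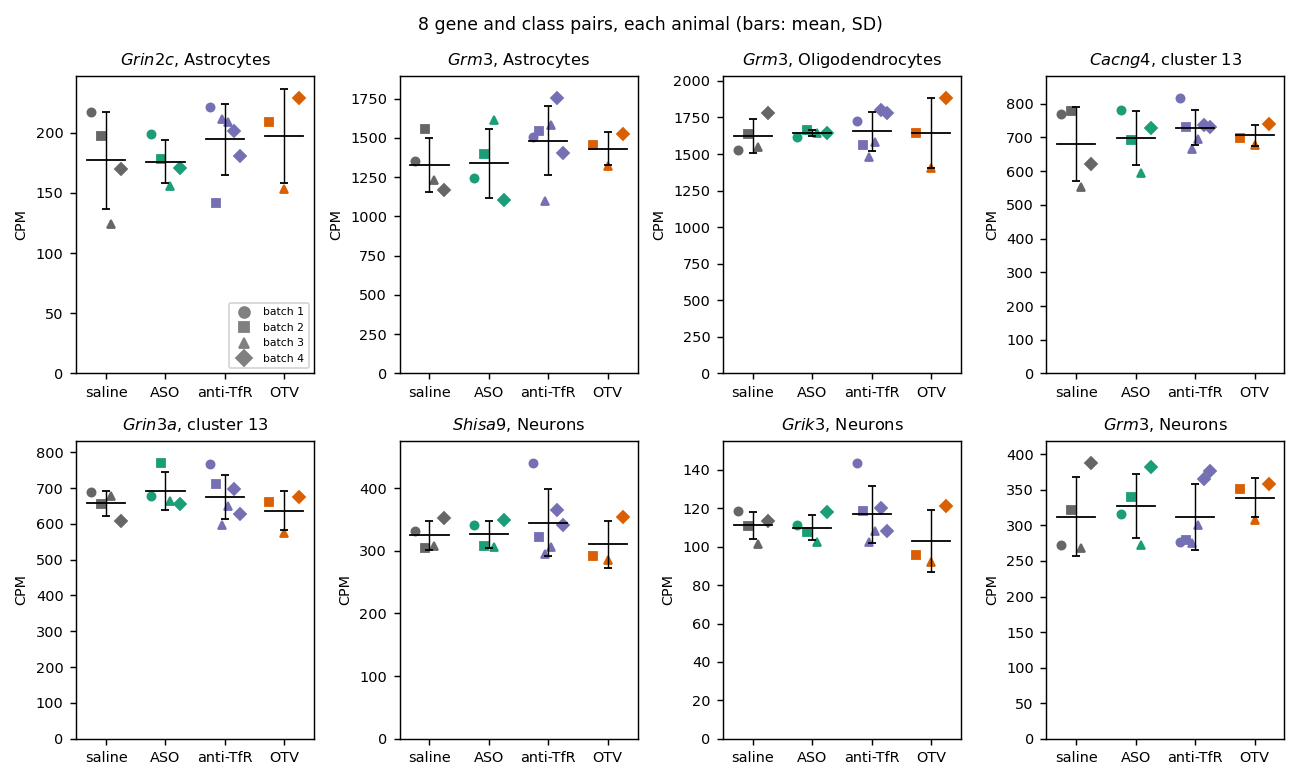
CPM of 8 pairs of member and class in each of 17 animals (points), by group, with the marker shape giving the deposited batch and bars the mean ± SD. The groups overlap in every panel, and Grm3 in Neurons is highest in the animals of batch 4 (359 to 388 CPM).

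In glia no member passed the threshold either. Oligodendrocytes had 30 members tested and none called in the 4 comparisons, with 0.0209% of 14362 genes called for OTV:Malat1 against saline, 0.00696% for OTV:Malat1 against anti-TfR:Malat1 and 0% for the other 2. In the order OTV:Malat1, anti-TfR:Malat1 and Malat1 ASO against saline, then OTV:Malat1 against anti-TfR:Malat1, members with an unadjusted p under 0.05 numbered 0, 1, 1 and 2, beside 2.6%, 1.75%, 1.16% and 2.79% of genes. They were Cacng8 in anti-TfR:Malat1 (log2 change 0.65, 0.19 to 1.10, from 3.39 CPM in saline, which was 4.64% of its level in Neurons), Grin3a in Malat1 ASO (0.29, 0.04 to 0.53), and Gria4 (-0.24, -0.46 to -0.02) and Grik4 (-0.29, -0.56 to -0.03) between the conjugates. Grm3, the member whose highest level lay in this class, was at 1531, 1635, 1551 and 1784 CPM in saline, at 1616, 1665, 1645 and 1644 in Malat1 ASO, from 1480 to 1799 (median 1653) in anti-TfR:Malat1 and at 1645, 1406 and 1884 in OTV:Malat1. Its change in OTV:Malat1, the group with the large Malat1 difference in these nuclei, was -0.16 (-0.38 to 0.05) in the TMM-scaled fit and 0.02 on total UMIs, so its direction depended on the scaling, and the groups overlapped. Cacng7 was at 55.3, 64.0, 45.4 and 43.6 CPM in saline and at 57.6, 47.6 and 50.6 in OTV:Malat1, a change of -0.20 (-0.47 to 0.08) in the fit and 0.00 on total UMIs. Total UMIs include Malat1, at 102620 CPM in saline and 16453 CPM in OTV:Malat1 in these nuclei. With less Malat1, the other genes make up more of the total UMIs. The part of Malat1 in the gap between the scalings was not tested.

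Astrocytes had 24 members tested and none called, with 0.0117% of 8533 genes called for OTV:Malat1 against saline and again against anti-TfR:Malat1. Members with an unadjusted p under 0.05 numbered 1, 0, 1 and 0 in the same order, beside 3.82%, 2.98%, 2.17% and 4.04% of genes: Grik4 in OTV:Malat1 (-0.58, -1.08 to -0.09) and Cacng4 in Malat1 ASO (-0.60, -1.16 to -0.05). Grin2c was at 217, 197, 124 and 170 CPM in saline, at 198.5, 178, 155 and 171 in Malat1 ASO, from 142 to 221 (median 205) in anti-TfR:Malat1 and at 209, 153 and 229 in OTV:Malat1. The groups overlapped, and its change in OTV:Malat1 was 0.00 (-0.38 to 0.39). Grm3 was at 1355, 1557, 1231 and 1170 CPM in saline and at 1452, 1320 and 1522 in OTV:Malat1, a change of 0.00 (-0.29 to 0.30). The intervals of this class were wide, with a median half-width of 0.49 for OTV:Malat1 against saline.

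Cluster 13 had 28 members tested and none called, with 0% of 10775 genes called in each comparison. Members with an unadjusted p under 0.05 numbered 1, 0, 0 and 2, beside 3.7%, 2.85%, 2.52% and 3.95% of genes. They were Cacng7 in OTV:Malat1 against saline (-0.33, -0.62 to -0.04) and, between the conjugates, Cacng7 (-0.28, -0.55 to -0.01) and Gria4 (-0.19, -0.35 to -0.03). Cacng4 was at 769, 778.5, 554 and 620 CPM in saline, at 780, 693, 593 and 726 in Malat1 ASO, from 667 to 817 (median 730) in anti-TfR:Malat1 and at 699, 678.5 and 740 in OTV:Malat1. Saline spanned the widest range, and the change in OTV:Malat1 was 0.00 (-0.22 to 0.23). Grin3a was at 690, 655, 677 and 609 CPM in saline and at 661, 574.5 and 674 in OTV:Malat1, a change of -0.09 (-0.30 to 0.12).

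The remaining classes gave the same count of 0 calls. Microglia had 17 members tested, with 0.011% of 9104 genes called for OTV:Malat1 against saline. Members with an unadjusted p under 0.05 numbered 0, 2, 0 and 0, beside 4.06%, 2.92%, 2.26% and 3.64% of genes, and were Gria1 (log2 change 0.71) and Neto1 (1.06) in anti-TfR:Malat1. In saline Microglia these genes were at 3.02% and 6.25% of their level in Neurons, under the background median of 8.75%. In vascular nuclei 9 members were tested, none at an unadjusted p under 0.05, beside 5.12%, 2.21%, 4.18% and 4.42% of 3303 genes. Over all nuclei 32 members were tested, with 0, 0, 0 and 3 (Grik3, Cacng2 and Shisa9) at an unadjusted p under 0.05, beside 1.11%, 1.21%, 0.604% and 1.61% of 21375 genes.

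Single neuronal clusters were fitted separately, 16 in all, with 441 tests of a member in a cluster per comparison. No member was called, and 0.000552% of the 181182 gene tests were called for OTV:Malat1 against saline and for OTV:Malat1 against anti-TfR:Malat1. Unadjusted p values under 0.05 were found in 6 of 441 tests (1.36%) for OTV:Malat1 against saline, beside 2.66% of all genes, and in 15 (3.4%) for anti-TfR:Malat1, beside 2.47%. They were found in 11 (2.49%) for Malat1 ASO, beside 1.8%, with 7 of them in cluster 11, where 12.2% of genes had such a p. They were found in 30 (6.8%) for OTV:Malat1 against anti-TfR:Malat1, beside 3.38%. Shisa9 accounted for 9 of these 30, in clusters 1, 3, 4, 5, 6, 9, 12, 17 and 18 of 15 tested, with differences from -0.44 to -0.26. Grik3 accounted for 4, in clusters 7, 14, 17 and 18 of 13 tested, with differences from -0.67 to -0.28. The mixed clusters 11, 14, 17 and 18 held 3 of the 6 tests for OTV:Malat1, 9 of the 15 for anti-TfR:Malat1, 10 of the 11 for Malat1 ASO and 9 of the 30 between the conjugates, among them 3 of the 4 of Grik3 and 2 of the 9 of Shisa9. Cluster 16 held 1 more for anti-TfR:Malat1. Without the authors' doublets no value could be had for clusters 17 and 18. Leading genes included Pdgfra and Cspg4 in cluster 17 and Siglech and Spi1 in cluster 18. The clusters come from the same animals and are not independent. The smallest adjusted p of a member in these fits was 0.177 by edgeR, for Grin2b in cluster 11 in Malat1 ASO against saline (1.28). In that cluster the 6 neuron markers all had changes above 0 in the same comparison (median 0.80), and their summed level ranged from 2951 to 3986 CPM in saline and from 4629 to 7232 CPM in Malat1 ASO. Their part in the Grin2b value was not tested.

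Some members differed between the deposited batches, as did many genes. These batches are numbers in the metadata whose meaning is not given in the sources used here. In a test across the 4 batches with the group in the model, added after the data were seen, 4 of 32 members were called in Neurons by edgeR, beside 19.5% of all genes: Grm3 (adjusted p = 6.1e-04), Grid1 (0.0214), Shisa9 (0.0249) and Grm8 (0.0277). Mean Grm3 in batches 1 to 4 was 288.5, 323, 284.5 and 374 CPM, and batch 4 ranged from 359 to 388 while the other batches ranged from 268 to 352. Mean Shisa9 was 371, 306, 300 and 352.5 CPM. Members called across batches numbered 3 of 30 in Oligodendrocytes (12.6% of genes), 4 of 28 in cluster 13 (4.48%), 3 of 17 in Microglia (2.58%), 0 of 24 in Astrocytes (1.38%), 0 of 9 in vascular nuclei (0.121%) and 3 of 32 in all nuclei (21.7%). The share of members called was below that of all genes in Neurons, Oligodendrocytes and all nuclei and above it in cluster 13 and Microglia. In cluster 13 the members called by edgeR were Cacng4 (adjusted p = 0.0118), Grin2b (0.0186), Shisa9 (0.0311) and Grik3 (0.0318), of which Grin2b was at 3.74% of its level in Neurons, under the background median of 22.8%. In Microglia they were Gria2, Gria4 and Grm5, the last 2 at 7.04% and 4.92% of Neurons and so under the background median of 8.75%, and in Oligodendrocytes Grik4, Gria3 and Grm5, the last at 4.56% beside 6.23%. OTV:Malat1 had no animal in batch 1, whose 3 Shisa9 values were 332, 342 and 440 CPM, the last that of anti-TfR:Malat1 animal 1, while batch 4 ranged from 342 to 366 CPM.

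Cluster 16 stood apart among the neuronal clusters in its numbers, from 22 to 1249 nuclei per animal, and was left unnamed. The 4 animals with over 300 of these nuclei were Malat1 ASO 3, anti-TfR:Malat1 1, anti-TfR:Malat1 2 and OTV:Malat1 1. In these animals the nuclei held Gabra6, a GABA receptor subunit known from cerebellar granule cells, at 522 to 584 CPM, with Grik2 at 3114 to 4018, Grm4 at 289 to 562 and Grin2c at 115 to 180 CPM, and with Grin2b at 102 to 142 and Grm5 at 87.8 to 174 CPM. In the saline animals the cluster had 23 to 62 nuclei, Gabra6 was at 0 to 75.3 CPM and Grik2 at 317 to 1757 CPM. The other treated animals likewise had few, 22 to 93 nuclei, with Gabra6 at 0 to 199.5 CPM and Grik2 at 649 to 2055 CPM. The nuclei of cluster 16 enter the level over Neurons, and the changes of Grin2c without them are given above. Without cluster 16 there were again 0 members called in Neurons, and Grik3, Cacng2 and Shisa9 had an unadjusted p under 0.05 between the conjugates, beside 2.13% of 20839 genes.

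**Figure D5:**
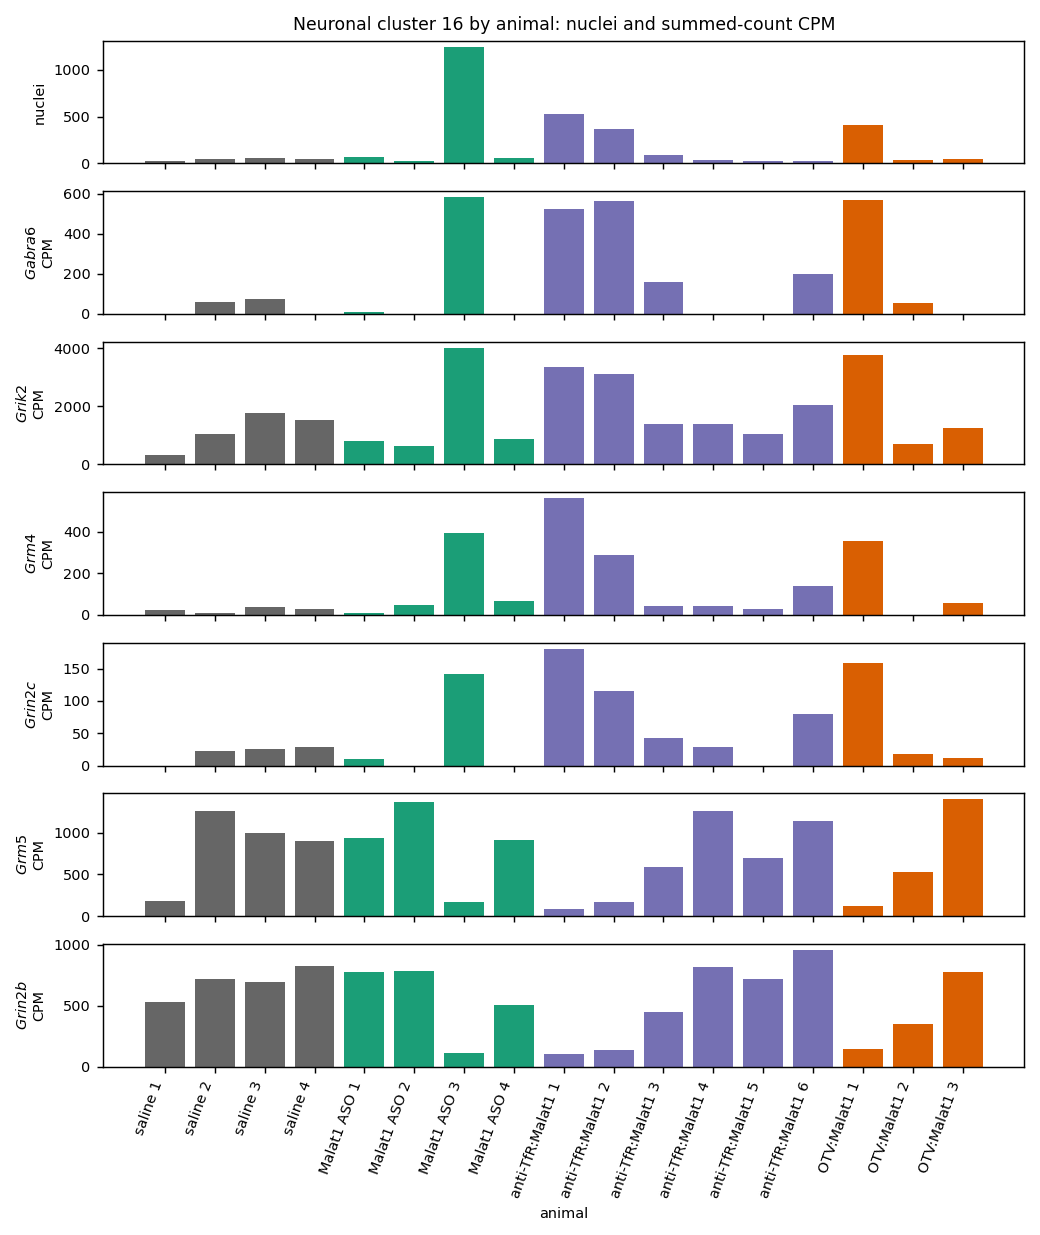
Nuclei of cluster 16 and CPM of Gabra6 and 5 members in these nuclei for each of the 17 animals (bars from 0). The 4 animals with over 300 nuclei share high Gabra6, Grik2, Grm4 and Grin2c and low Grm5 and Grin2b.

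The other genes of glutamate signalling showed no call either. In Neurons 0 of 14 genes of glutamate synthesis and transport, 0 of 21 postsynaptic scaffold and kinase genes and 0 of 27 genes of other receptor partners passed the threshold in the 4 comparisons, beside 0% of all genes, with medians of -0.04, -0.07 and -0.01 for OTV:Malat1 against saline. The lowest value among the scaffold genes was that of Homer1, which links metabotropic receptors to the scaffold and has an activity-induced short form, at -0.62 (-1.31 to 0.07). For OTV:Malat1 against anti-TfR:Malat1 the medians of the lists, in the same order, were -0.07, -0.12 and -0.06 under the main scaling. The median of all genes was 0.011, so the lean below 0 between the conjugates was not particular to the receptor genes. At an unadjusted p under 0.05 the lists held 1 gene in Neurons, the glutamate transporter gene Slc1a2 between the conjugates, beside 2.08% of all genes there and 1.22%, 1.18% and 0.638% in the comparisons of OTV:Malat1, anti-TfR:Malat1 and Malat1 ASO against saline.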

How the data were processed

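Nuclear RNA of 17 libraries was captured on the 10x Genomics platform from frozen tissue dounced in lysis buffer and sorted by flow cytometry, per the labels' protocols. Each library had its own sample ID and is called an animal, although the labels do not state that each came from a separate mouse, so p-values measure the spread between these libraries. The authors deposited integer UMI counts per gene and nucleus, with cell type labels, cluster numbers, doublet calls and batch numbers, per the file headers. The submitters' processing notes name Cell Ranger 6.0.1, Seurat 4 and mm10. What is not given in the sources used here: label reference, doublet caller, use of intronic reads and meaning of the batch. Nuclei ranged down to 500 UMIs and up to 4500 genes, and 0.33% to 0.623% of barcodes were shared by any 2 libraries. Of the metadata columns, 11 were not used.

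Counts were summed per animal and class or neuronal cluster (20 nuclei or more) and CPM was computed on total UMIs, so a member's CPM also depends on the other RNAs of the class, Malat1 included. edgeR 4.0.16 (limma 3.58.1, R 4.3.3; filterByExpr, TMM, glmQLFit, glmQLFTest, two-sided, Benjamini-Hochberg within each fit and comparison, threshold 0.05) was fitted to all 17 animals for 7 classes and 16 neuronal clusters in 4 comparisons. Perivascular macrophages (23 to 63 nuclei per animal) and Glia (1 to 53) were not fitted. Python 3.11.15 (numpy 2.4.6, pandas 2.3.3) made the sums, and the scripts were tested on simulated data. In simulated counts for OTV:Malat1 against saline, 36% of log2 changes of 0.5 were recovered in Neurons and 10.5% in Astrocytes. For log2 changes of 1 these shares were 71% and 54.5%, so a count of 0 calls does not exclude changes of this size. DESeq2 1.42.0, other scalings and filters, replicate and batch blocks, doublets, label and depth limits and leaving out each animal were alternatives.

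The members, the gene lists and the marker lists were chosen with earlier results of these data known. Values per animal are given for the 2 members of smallest p in Neurons in each comparison, the most abundant member of each family in Neurons, and the 2 members of largest ratio to Neurons (10 CPM or more) in Astrocytes, Oligodendrocytes and cluster 13. For anti-TfR:Malat1 they are given as a range, and for some genes not all groups are given. Other genes named were those at an unadjusted p under 0.05, named after their values were seen. Promoter letters come from RefSeq.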

Additional observations from a re-analysis of the deposited data

Results flagged for a closer look

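Grm7 in Neurons was at 2232 CPM in saline animal 4, while the other 3 saline animals lay between 2040 and 2059 CPM. This gap was the only one past Dixon's 95% limit among 54 groups of 4 to 6 animals tested, where chance alone flags about 1 in 20 groups. Without this animal the median member in Neurons was at 0.00 in OTV:Malat1 against saline, while over all animals left out in turn it ran from -0.09 to 0.03.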

How the results depend on the processing

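No alternative gave a call for any member: 0 of 544 pairs of fit and comparison in the classes and 0 of 376 in the neuronal clusters, where DESeq2 had 18 of 688 (2.62%) and 65 of 1764 (3.68%) member tests at an unadjusted p under 0.05, beside 1.43% and 1.77% of all gene tests. In the main fits of classes and clusters 0% to 0.0209% of all genes were called, so 0 calls is no trait of these members. The smallest adjusted p of a member was 0.0626 (Grik2, cluster 11, Malat1 ASO against saline, 1.60, with the replicate block). Of 582 alternative values of the 21 named changes in fits, none passed the threshold. Where the reported change was not 0.00, 7 had the other sign, all in Neurons for OTV:Malat1 against saline; the cause was not tested. The 3 changes at 0.00 ran to both signs, total-UMI scaling included: Grin2c (-0.12 to 0.19) and Grm3 (-0.06 to 0.11) in Astrocytes and Cacng4 in cluster 13 (-0.09 to 0.08). Without OTV:Malat1 animal 2 the 7 included Grin2a (0.10), Grik2 (0.03), Grid1 (0.03), Grm7 (0.05) and Cacng3 (0.04). Grik2 was also at 0.01 with the replicate block and at 0.04 without saline animal 4. On total UMIs, with no test, 4 of the 21 had the other sign: Grik2 (0.05), Grid1 (0.01) and Grm7 (0.02) in Neurons and Grm3 in Oligodendrocytes (0.02). When 1 animal was left out, the values ranged from -0.19 to 0.10 for Grin2a, from -0.06 to 0.04 for Grik2, from -0.14 to 0.03 for Grid1, from -0.11 to 0.05 for Grm7 and from -0.32 to 0.04 for Cacng3. The replicate block left 0 members called. Replicate numbers were not taken to pair the animals: the deviations of 21 same-numbered pairs correlated from -0.61 to 0.71, and 5 of 17 animals correlated best with an animal of their own number. The number follows the batch in part: the 27 same-batch pairs had a median of 0.38, and the 11 pairs of 1 number in different batches had -0.29. The class of highest level was the same for all members in 4 alternatives, and 10 of 72 alternative levels moved by over 1 SD. No value could be had for vascular nuclei with majority labels, for cluster 11 with nuclei of 1000 or more UMIs, or for clusters 17 and 18 without doublets. Alternatives added after the data were seen were DESeq2 on clusters, Neurons without cluster 16, cluster 16 without animals of over 300 nuclei, the batch test, the 6-marker background and total-UMI scaling. Median half-widths for OTV:Malat1 against saline were 0.49 in Astrocytes, 0.72 in Microglia, 0.94 in vascular nuclei and 0.87, 1.12 and 1.77 in neuronal clusters 2, 11 and 16.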
